A study of Drosophila melanogaster with 12 samples.

Results

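Wing imaginal discs, the epithelial sacs of the Drosophila larva that form the adult wing, were followed through the early phase of regeneration, by comparing regenerating discs at 15 h with regenerating discs at 0 h after apoptosis had been induced. The comparison takes the groups titled 15h_reg and 0h_reg, which hold 4 of the 12 poly(A) RNA libraries of the series, and the 8282 of 17158 genes listed above 0 in both. Each group was 2 libraries of 40 discs from larvae of the third instar, and the table gives 1 merged FPKM value per gene and group, so that no difference below has a replicate check and no test was possible. FPKM, fragments per kilobase per unit of library size, corrects a gene's fragment number for transcript length and library size. Control discs at 15 h and 0 h, which had no cell death induced and were otherwise kept alike, are set beside the regenerating discs. The labels used here speak of a regeneration genotype and a control genotype and name no allele, driver, inducing gene, sex or age in hours, so none can be given here. The 3 times were chosen by the study to span the response from the earliest expression to complete re-patterning.

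A wing disc that loses cells to apoptosis rebuilds them by extra proliferation of the survivors. Dying and wounded cells activate the JNK kinase cascade, which induces secreted signals and proapoptotic genes, and the damaged disc releases the peptide Ilp8, which delays metamorphosis. Growth then draws on the Wingless, Hippo and Myc pathways, while damage also induces stress and detoxification genes. These statements are background and not results of these data.

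Of the 10 marker genes of wing disc cells, all were above 0 in both regenerating columns, and their FPKM summed to 302 at 15 h, against 198 at 0 h. In control discs the sum rose as well, to 243 at 15 h, against 159 at 0 h. FPKM over all genes summed to 1247530 at 15 h and 1376240 at 0 h, and 8459 and 8538 genes were listed at 0. A listing at 0 is not read as absence, and read depth is unknown. At 15 h 3919 values and at 0 h 4003 values had lost their decimal points and rest on the restored ones.

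A gene was called higher or lower where the log2 ratio of (FPKM + 1) at 15 h over (FPKM + 1) at 0 h was at least 1 in size, among the 7924 members with a value of 1 FPKM or more in at least 1 of the columns. Adding 1 makes the ratios of weakly expressed genes smaller than those of their FPKM. At 15 h 133 genes were higher, 1.68% of those measured, and 161 were lower, 2.03%. The log2 ratio of the median gene was itself 0.22, and medians of gene lists are given relative to it. Median-of-ratios scaling moved every log2 ratio of well expressed genes by -0.24 and gave 52 higher genes, 0.661%, and 251 lower genes, 3.19%, so that the share of higher genes among those called was 17.2% scaled and 45.2% as deposited. All 52 and all 161 were shared with the other scaling. Just inside the rule lay CG11307 at 38.9 FPKM at 15 h and 18.9 FPKM at 0 h and Pepck1 at 11.9 FPKM at 15 h and 24.9 FPKM at 0 h, and just outside lay Tsf1 at 37.9 FPKM at 15 h and 18.4 FPKM at 0 h and CG12560 at 7.83 FPKM at 15 h and 16.6 FPKM at 0 h.

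**Figure D1:**
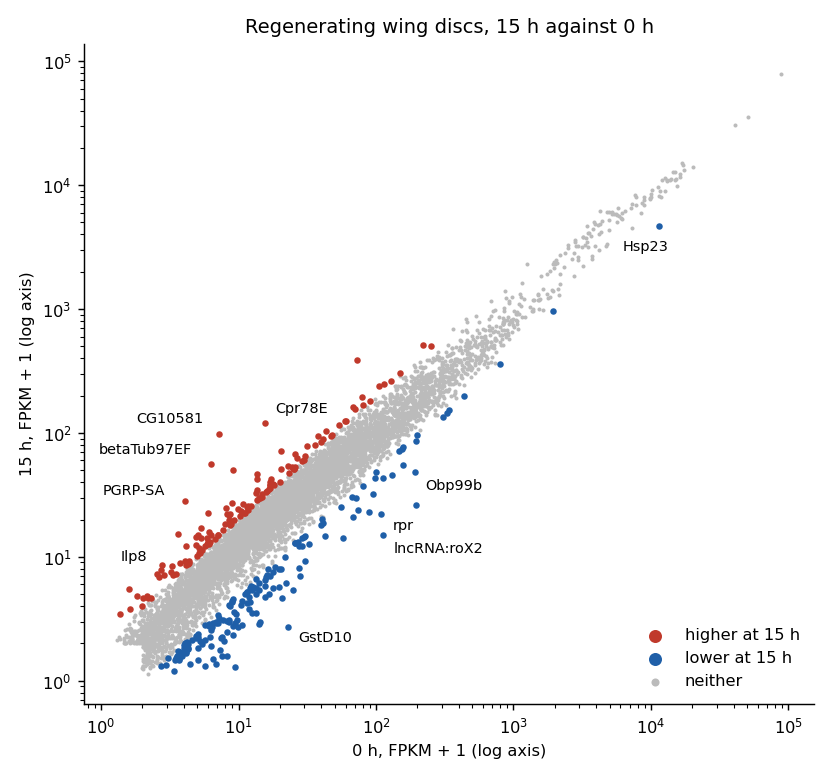
FPKM + 1 of each of the 7924 measured genes in regenerating discs at 15 h (vertical) against 0 h (horizontal), on log axes, 1 merged value per gene and time. Red points are the 133 genes called higher at 15 h, blue points the 161 called lower and grey points the rest, and the labelled genes are described in the text.

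The strongest rise belonged to CG10581, a gene with no named product on chromosome 3L of the dm6 assembly, 21033554 to 21034203, which stood at 97.2 FPKM at 15 h, against 6.25 FPKM at 0 h, a log2 ratio of 3.76. Its level in regenerating discs at 25 h was 111 FPKM. Control discs moved the same way, with 73.3 FPKM at 15 h and 6.25 FPKM at 0 h. The beta-tubulin isotype gene betaTub97EF (chromosome 3R, 27967008 to 27988384), whose product is a building block of microtubules, rose to 54.6 FPKM at 15 h, against 5.31 FPKM at 0 h, a log2 ratio of 3.14. It stood at 59.7 FPKM at 25 h. In control discs betaTub97EF stood at 21.9 FPKM at 15 h and 4.83 FPKM at 0 h, a log2 ratio of 1.97, and so rose in both, by 1.17 more in regenerating discs.

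Cpr78E, a cuticle protein gene, rose to 118 FPKM at 15 h, against 14.5 FPKM at 0 h. PGRP-SA, the circulating receptor that detects the peptidoglycan of Gram-positive bacteria for the Toll pathway, rose to 27.4 FPKM at 15 h, against 3.11 FPKM at 0 h. Both rose in control discs as well, Cpr78E to 141 FPKM at 15 h, against 25.6 FPKM at 0 h, and PGRP-SA to 18.7 FPKM at 15 h, against 1.69 FPKM at 0 h. Of the 12 highest ratios Ect3 and CG32640 are the exceptions, because their control values lay within the rule. Ect3 rose to 14.2 FPKM at 15 h, against 2.62 FPKM at 0 h, in regenerating discs, with 3.85 FPKM at 15 h and 1.73 FPKM at 0 h in control discs. CG32640 rose to 16.0 FPKM at 15 h, against 4.36 FPKM at 0 h, levels far below the 194 FPKM at 15 h and 117 FPKM at 0 h in control discs. CG10581, CG32640 and 6 others of the 12 have no named product, from CG4872 at 49.6 FPKM at 15 h and 8.15 FPKM at 0 h to CG40006 at 7.65 FPKM at 15 h and 1.75 FPKM at 0 h. These 12 lead the genes that reached 5 FPKM at either time, and all also passed the rule after median-of-ratios scaling.

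**Figure D2:**
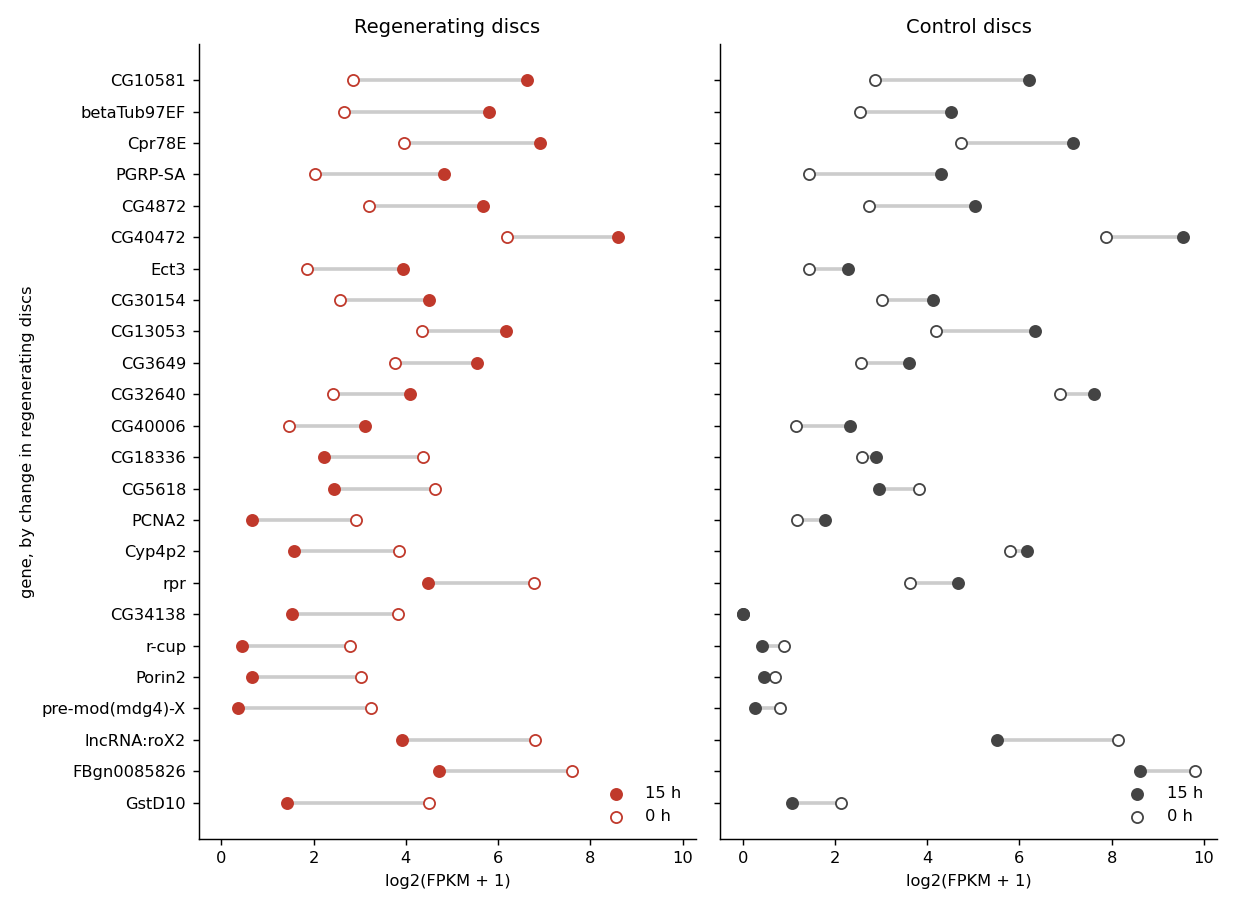
Levels as log2(FPKM + 1) of the 12 genes with the highest and the 12 with the lowest change in regenerating discs (left) and the same genes in control discs (right), with filled points for 15 h, open points for 0 h and 1 merged value per point. Genes at the top, such as CG10581 and PGRP-SA, moved to the right in both panels, while rpr and PCNA2 moved to the left in regenerating discs and to the right in control discs.

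Genes of growth and the nucleolus, where ribosomes are assembled, lay high as a group. Of 15 measured members 2 rose, where 1.68% of all measured genes rose, and 0 fell. In control discs 2 of 15 rose as well, where 4.72% of all genes measured there rose. The median ratio of the list, relative to the median gene, was 0.43, against -0.16 in control discs. Myc (chromosome X, 3373159 to 3391697), the transcription factor that drives ribosome production and growth, rose to 14.8 FPKM at 15 h, against 5.12 FPKM at 0 h. At 25 h it was at 1.72 FPKM, below both earlier values. Control discs held 9.87 FPKM of Myc at 15 h and 3.05 FPKM at 0 h, a log2 ratio of 1.42 beside 1.37 in regenerating discs, and with a pseudocount of 5 the ratio of Myc in regenerating discs was 0.97, within the rule. The nucleolar helicase gene pit rose to 59.5 FPKM at 15 h, against 29.1 FPKM at 0 h, but with a log2 ratio of 0.77 it did not pass the rule after median-of-ratios scaling. The ribosomal RNA modification genes nop5 and Nop56 stayed within the rule, with nop5 at 196 FPKM at 15 h and 111 FPKM at 0 h, and at 80.0 FPKM at 15 h and 82.7 FPKM at 0 h in control discs. Over the 5 members with no restored value the median of this list was -0.11 relative to all such genes.

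Most cell cycle genes lay above the median gene without passing the rule. None of 24 measured DNA replication genes and none of 24 mitosis genes were called in either direction, and 20 and 18 of them lay above the median gene, in that order. The medians were 0.21 and 0.31 relative to all genes in regenerating discs, against 0.01 and 0.14 in control discs. Closest to the rule was dpa, a subunit of the replicative helicase, at 70.0 FPKM at 15 h and 35.8 FPKM at 0 h, followed by the S phase kinase gene Cdk2 at 91.0 FPKM at 15 h and 47.8 FPKM at 0 h. In control discs dpa stood at 23.3 FPKM at 15 h and 19.1 FPKM at 0 h. Among mitotic genes the spindle checkpoint kinase gene BubR1 stood at 20.4 FPKM at 15 h and 10.6 FPKM at 0 h and the mitotic cyclin gene CycB at 125 FPKM at 15 h and 72.2 FPKM at 0 h. Lowest in the 2 lists were Sld5, a helicase cofactor, at 50.6 FPKM at 15 h and 81.1 FPKM at 0 h and Det, the fly survivin of the chromosomal passenger complex, at 148 FPKM at 15 h and 226 FPKM at 0 h.

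Proteasome genes, whose products degrade tagged proteins, had 0 of 34 members past the rule and a median of 0.30 relative to all genes, against -0.07 in control discs. The regulatory particle gene Rpn7 stood at 188 FPKM at 15 h and 97.9 FPKM at 0 h, and at 85.6 FPKM at 15 h and 75.2 FPKM at 0 h in control discs. Of 4 measured tubulin genes 2 rose, betaTub97EF and alphaTub84D, beside 1.68% of all measured genes. The second stood at 194 FPKM at 15 h and 77.9 FPKM at 0 h, though alphaTub84D is nearly identical to alphaTub84B and its separate value is uncertain. Among glycolytic genes Gapdh1 was the 1 of 12 that rose, to 513 FPKM at 15 h, against 219 FPKM at 0 h, and it missed the rule after scaling at 0.98.

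Several genes among the 133 act on RNA or repair DNA, and they are named here after their values were seen, so their number is no evidence of a theme. They include the RNA-binding protein genes msi, at 17.5 FPKM at 15 h and 6.91 FPKM at 0 h, heph, at 125 FPKM at 15 h and 58.2 FPKM at 0 h, Psi, at 28.9 FPKM at 15 h and 13.2 FPKM at 0 h, and Syp, at 84.0 FPKM at 15 h and 38.9 FPKM at 0 h. None of these 4 passed after scaling. The double-strand break repair gene mre11 rose to 39.5 FPKM at 15 h, against 16.0 FPKM at 0 h, and passed under both scalings. In control discs mre11 stood at 21.0 FPKM at 15 h and 18.6 FPKM at 0 h. The replicative polymerase subunit gene PolE2 rose to 18.7 FPKM at 15 h, against 7.50 FPKM at 0 h, and the replication checkpoint gene Claspin to 9.65 FPKM at 15 h, against 4.22 FPKM at 0 h, both within the rule after scaling. The histone deacetylase gene HDAC1 rose to 160.3 FPKM at 15 h, against 67.6 FPKM at 0 h, likewise within the rule after scaling at 0.99.

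Among damage-response signals Ilp8 (chromosome 3L, 17029812 to 17032080) was the 1 of 7 measured members that rose, where 1.68% of all measured genes rose. It rose to 6.27 FPKM at 15 h, against 1.55 FPKM at 0 h. Its level at 25 h was 6.39 FPKM, while control discs listed it at 0 at all 3 times. With a pseudocount of 5 in place of 1 the log2 ratio of Ilp8 was 0.78, within the rule. The growth factor gene Pvf1 stood at 5.68 FPKM at 15 h and 2.81 FPKM at 0 h, the JAK/STAT ligand gene upd1 at 3.52 FPKM at 15 h and 2.55 FPKM at 0 h, and the matrix protease gene Mmp1 at 17.3 FPKM at 15 h and 17.2 FPKM at 0 h, all within the rule. Stat92E, the transcription factor of the JAK/STAT pathway, stood at 44.4 FPKM at 15 h and 23.3 FPKM at 0 h, the largest ratio of the 4 measured members of that list, of which 0 passed.

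In the Wingless, Hedgehog, Dpp, EGFR, JAK/STAT and Hippo lists 3 genes rose, where 1.68% of all measured genes rose, and all 3 also rose in control discs. More members rose in control discs, where 4.72% of all genes measured there rose. The control counts were 2 of 21 Wingless, 1 of 9 Hedgehog, 1 of 10 Dpp, 4 of 13 EGFR, 0 of 4 JAK/STAT and 3 of 13 Hippo genes. Of 21 measured Wingless pathway genes 1 rose, pan, the TCF transcription factor at the end of the pathway, at 11.5 FPKM at 15 h and 3.94 FPKM at 0 h, beside 11.2 FPKM at 15 h and 4.13 FPKM at 0 h in control discs. With a pseudocount of 5 the log2 ratio of pan was 0.89, within the rule. The receptor gene fz3, a target of the pathway, stood just within the rule at 26.2 FPKM at 15 h and 12.9 FPKM at 0 h, with 10.3 FPKM at 15 h and 9.53 FPKM at 0 h in control discs. Of 9 Hedgehog pathway genes 1 rose, ci, the transcription factor of that pathway, at 94.0 FPKM at 15 h and 36.6 FPKM at 0 h, beside 58.7 FPKM at 15 h and 23.1 FPKM at 0 h in control discs. In regenerating discs at 25 h pan and ci stood at 3.52 and 29.1 FPKM. None of 10 Dpp, 13 EGFR and 4 JAK/STAT genes passed in either direction, and of 13 Hippo genes Myc was the 1 called. The effector gene yki stood at 45.5 FPKM at 15 h and 35.2 FPKM at 0 h.

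Patterning genes of the wing pouch, hinge and notum had 0 of 10, 0 of 8 and 0 of 9 measured members past the rule, with medians of 0.24, 0.24 and 0.29 relative to all genes, against 0.11, 0.14 and 0.07 in control discs. The wing selector gene vg stood at 35.0 FPKM at 15 h and 19.5 FPKM at 0 h, and at 21.4 FPKM at 15 h and 16.3 FPKM at 0 h in control discs. The notum gene eyg stood at 9.61 FPKM at 15 h and 4.88 FPKM at 0 h, with 4.07 FPKM at 15 h and 3.38 FPKM at 0 h in control discs. Of 12 junction and polarity genes 1 rose, where 1.68% of all measured genes rose. This was the tumour suppressor gene l(2)gl, at 52.3 FPKM at 15 h and 23.5 FPKM at 0 h, and not after scaling. The ecdysone receptor gene EcR, through which the moulting hormone acts, stood at 17.3 FPKM at 15 h and 9.27 FPKM at 0 h, and 0 of 21 measured ecdysone genes were called.

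**Figure D3:**
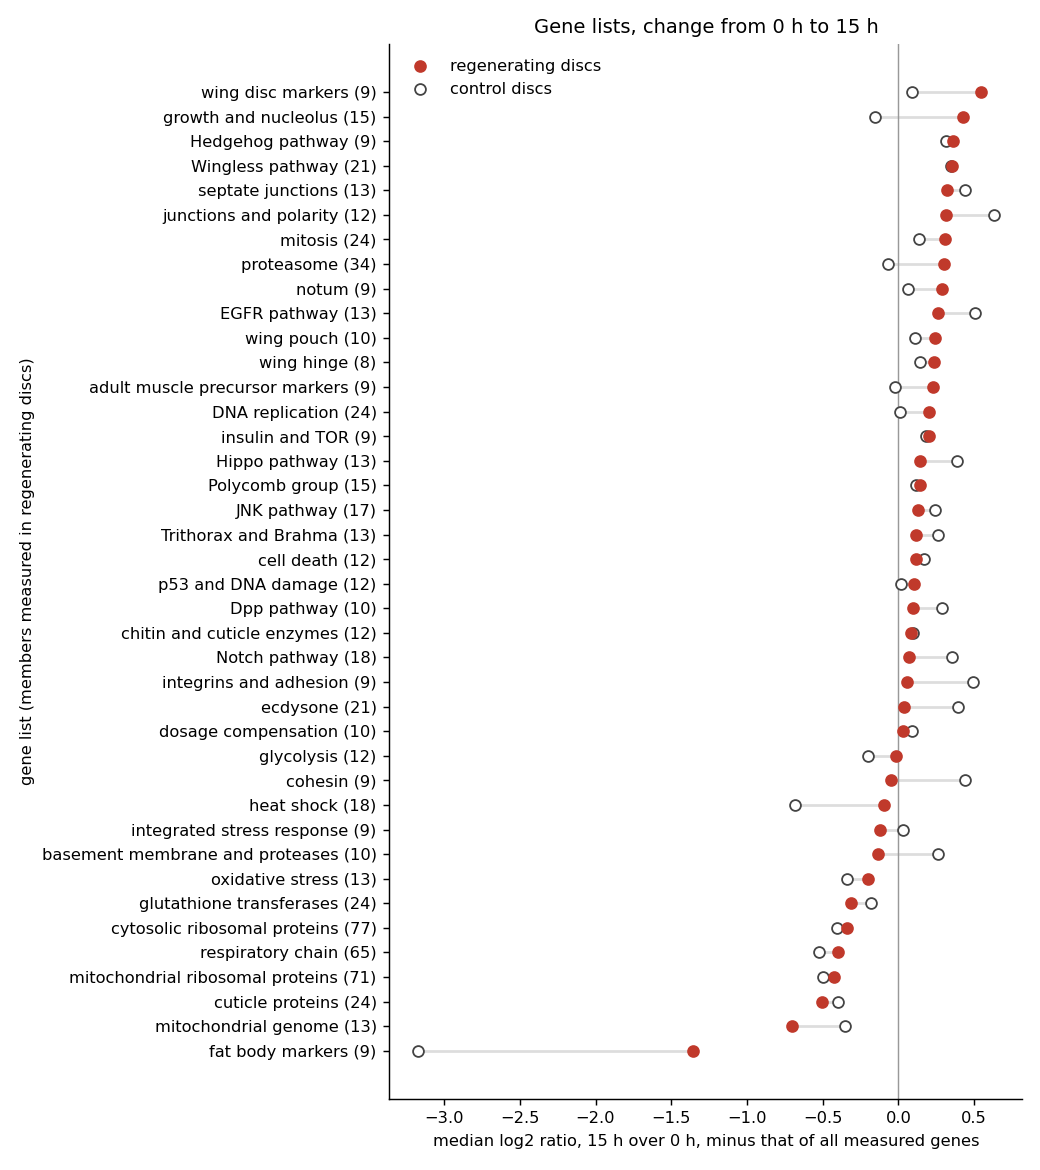
Median log2 ratio of 15 h over 0 h for each gene list with at least 7 measured members in each kind of disc, minus the median of all measured genes. Lists singled out after their values were seen are left out. Filled points are regenerating and open points control discs, with the number of members measured in regenerating discs in brackets. Nucleolar and proteasome genes lay to the right of 0 in regenerating discs and to the left in control discs, and fat body markers lay far left in both. The cohesin list includes Nipped-A, which is no cohesin gene.

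The fall of the proapoptotic gene rpr (chromosome 3L, 18397535 to 18398435), which frees caspases by removing their inhibitor Diap1, was the clearest among cell death genes. It fell to 21.3 FPKM at 15 h, against 108 FPKM at 0 h, a log2 ratio of -2.30, and stood at 15.2 FPKM at 25 h. Control discs went the opposite way, with 24.6 FPKM at 15 h and 11.4 FPKM at 0 h, so that the 15 h levels of both kinds of disc lay close together. The labels do not say how death was induced, so reads of the endogenous gene and of an inducing construct cannot be told apart. Of this list rpr alone passed the rule, where 2.03% of all measured genes fell, and the other 11 measured members stayed within it. The proapoptotic gene hid stood at 11.2 FPKM at 15 h and 9.61 FPKM at 0 h, the inhibitor Diap1 at 232 FPKM at 15 h and 194 FPKM at 0 h, and the effector caspase gene Dcp-1 at 47.7 FPKM at 15 h and 30.1 FPKM at 0 h. All 6 measured caspase and adaptor genes lay above the median gene.

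Among the 17 measured JNK pathway genes 0 passed the rule in either direction. The TNF receptor gene grnd, at the top of the cascade, had the lowest ratio, with 86.7 FPKM at 15 h and 144 FPKM at 0 h, against 189 FPKM at 15 h and 96.4 FPKM at 0 h in control discs. The kinase gene msn, further down, had the highest, with 47.9 FPKM at 15 h and 28.2 FPKM at 0 h. All 3 genes of the transcription factors and feedback lay below the median gene, with Jra, the fly Jun, at 47.1 FPKM at 15 h and 63.8 FPKM at 0 h, kay, the fly Fos, at 29.0 FPKM at 15 h and 30.7 FPKM at 0 h, and the phosphatase gene puc, which shuts the cascade off, at 8.55 FPKM at 15 h and 8.56 FPKM at 0 h. Gadd45, a stress-response gene, stood at 33.6 FPKM at 15 h and 49.9 FPKM at 0 h, beside 23.5 FPKM at 15 h and 14.4 FPKM at 0 h in control discs.

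Proneural and Notch genes each had 1 member that fell, of 5 and 18 measured in that order, where 2.03% of all measured genes fell. The proneural gene ac, which starts sensory organ formation, fell to 42.5 FPKM at 15 h, against 98.0 FPKM at 0 h, whereas control discs held 66.4 FPKM at 15 h and 24.8 FPKM at 0 h. Its neighbour sc stood at 29.0 FPKM at 15 h and 22.4 FPKM at 0 h, within the rule. The Notch target E(spl)m6-BFM fell to 42.5 FPKM at 15 h, against 111 FPKM at 0 h, with 54.8 FPKM at 15 h and 34.9 FPKM at 0 h in control discs. The other 10 measured E(spl) genes stayed within the rule, from E(spl)m3-HLH at 96.6 FPKM at 15 h and 160.5 FPKM at 0 h to E(spl)m8-HLH at 42.3 FPKM at 15 h and 24.9 FPKM at 0 h.

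Detoxification genes held the largest fall of all measured genes of at least 5 FPKM. GstD10 (chromosome 3R, 12364776 to 12365735), a glutathione transferase gene, fell to 1.70 FPKM at 15 h, against 21.7 FPKM at 0 h, a log2 ratio of -3.08. Control discs held 1.08 FPKM at 15 h and 3.39 FPKM at 0 h, so the regenerating discs stood apart at 0 h and came close to the control discs at 15 h. Of 24 measured glutathione transferase genes 5 fell and 0 rose, where 2.03% of all measured genes fell. After scaling 7 of them fell, where 3.19% of all genes fell, and the list median as deposited was -0.31 relative to all genes. GstE5 and GstE6 lay within the rule at a pseudocount of 5. The others that fell were GstD9, at 23.1 FPKM at 15 h and 73.2 FPKM at 0 h, GstE6, at 6.005 FPKM at 15 h and 15.8 FPKM at 0 h, GstE5, at 1.94 FPKM at 15 h and 6.14 FPKM at 0 h, and GstE7, at 1.29 FPKM at 15 h and 3.92 FPKM at 0 h. Members of the GstD and GstE clusters are similar in sequence, and their separate values are uncertain. None of 13 superoxide and peroxide genes was called.

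Of 18 measured heat shock genes 3 fell, where 2.03% of all measured genes fell, and 0 rose. After scaling 4 fell, where 3.19% of all genes fell. The small heat shock gene Hsp23 fell to 4687 FPKM at 15 h, against 11410.3 FPKM at 0 h, and control discs held nearly the same pair, 4492 FPKM at 15 h and 10769.8 FPKM at 0 h. Hsp68, an inducible chaperone gene, fell to 5.88 FPKM at 15 h, against 14.7 FPKM at 0 h, and Hsp70Bb to 4.69 FPKM at 15 h, against 18.7 FPKM at 0 h. Both fell further in control discs, Hsp68 to 1.44 FPKM at 15 h, against 33.0 FPKM at 0 h, and Hsp70Bb to 0.540 FPKM at 15 h, against 48.0 FPKM at 0 h. Hsp70Ab, a near-identical copy whose separate value is uncertain, stood at 34.8 FPKM at 15 h and 57.6 FPKM at 0 h in regenerating discs, against 0.790 FPKM at 15 h and 164 FPKM at 0 h in control discs. Of the 9 integrated stress response genes 0 were called.

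Another set of genes stood above 5 FPKM in regenerating discs at 0 h and below it in each of the 5 other columns, and its members were picked out after their values were seen. Porin2, which encodes a mitochondrial pore protein, fell to 0.575 FPKM at 15 h, against 7.20 FPKM at 0 h, with 0.385 FPKM at 15 h and 0.630 FPKM at 0 h in control discs. PCNA2, a relative of the polymerase clamp gene, fell to 0.590 FPKM at 15 h, against 6.58 FPKM at 0 h, and r-cup to 0.360 FPKM at 15 h, against 5.87 FPKM at 0 h. Ddc, the dopa decarboxylase gene of cuticle hardening and wound repair, fell to 0.510 FPKM at 15 h, against 5.53 FPKM at 0 h, and stood at 0.375 FPKM at 15 h and 0.540 FPKM at 0 h in control discs. CG34138 fell to 1.88 FPKM at 15 h, against 13.2 FPKM at 0 h, and was listed at 0 in control discs at all 3 times. Of the transcripts that are joined by trans-splicing to make mod(mdg4), a chromatin insulator gene, a group singled out after its values were seen, 18 were measured and 3 fell, beside 2.03% of all measured genes. The deepest fall was that of pre-mod(mdg4)-X at 0.285 FPKM at 15 h and 8.45 FPKM at 0 h. These transcripts overlap, and 2 of them, pre-mod(mdg4)-T and pre-mod(mdg4)-Z, carry identical values, so their separate levels are uncertain.

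Of 266 measured non-coding RNA genes 33 fell, 12.4% beside 2.03% of all measured genes, and 4 rose, where 1.68% of all measured genes rose. In control discs 12 of 325 were lower, 3.69% beside 1.15% of all genes measured there, and 24 were higher, 7.38% beside 4.72%. The deepest fall was that of lncRNA:roX2, an RNA of the dosage compensation complex of males, to 14.1 FPKM at 15 h, against 111 FPKM at 0 h. Control discs went the same way, to 44.7 FPKM at 15 h, against 282 FPKM at 0 h. Its partner lncRNA:roX1 stood at 68.0 FPKM at 15 h and 112 FPKM at 0 h, within the rule. Several of the lower genes are antisense RNAs, such as asRNA:CR44030, and as the labels do not say whether counting used the strand, their reads cannot be told apart from those of the genes opposite.

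The genes of protein synthesis and respiration lay low as groups although hardly any passed the rule. Of 77 measured cytosolic ribosomal protein genes 0 were called and 15 lay above the median gene, with a list median of -0.34 relative to all genes, against -0.40 in control discs. RpL5, the member with the lowest ratio, stood at 9830.3 FPKM at 15 h and 15480.2 FPKM at 0 h, against 10020.1 FPKM at 15 h and 6651 FPKM at 0 h in control discs. Of 71 mitochondrial ribosomal protein genes 1 fell, where 2.03% of all measured genes fell. This was mRpL53, at 73.8 FPKM at 15 h and 153 FPKM at 0 h. The median of these 71 genes was -0.42, against -0.50 in control discs. Of 65 respiratory chain genes 0 were called, at a median of -0.40 in regenerating and -0.52 in control discs. None of the 13 protein genes of the mitochondrial genome was called, but all 13 lay below the median gene, at a list median of -0.70 in regenerating and -0.35 in control discs, with mt:CoI at 2520.0 FPKM at 15 h and 3723 FPKM at 0 h.

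Gene length moved with these changes. Across 7762 genes the log2 ratio in regenerating discs ran with the summed exon length at a Spearman rho of 0.41, and in control discs at 0.45 over 7810 genes. These are descriptions across genes, which share 1 pair of columns and are not independent replicates. The median log2 ratio in regenerating discs was -0.24 for genes of up to 1000 bases, 0.12 and 0.30 for the classes between, and 0.36 for those over 4000 bases. Of genes of up to 1000 bases 72 of 1175 fell, 6.13%, and 18 rose, 1.53%. Of those over 4000 bases 4 of 1557 fell, 0.257%, and 34 rose, 2.18%. Among all measured genes 2.03% fell and 1.68% rose. Relative to all genes the shortest class had a median of -0.46. The median lengths of the cytosolic ribosomal, mitochondrial ribosomal and respiratory chain lists were 916, 783 and 871 bases, and those of the wing disc marker, Wingless and Hedgehog lists were 4282, 3817 and 4763 bases. Those of the growth and nucleolus and proteasome lists were 2140 and 1304 bases. The part of length in any list's median was not tested.

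**Figure D4:**
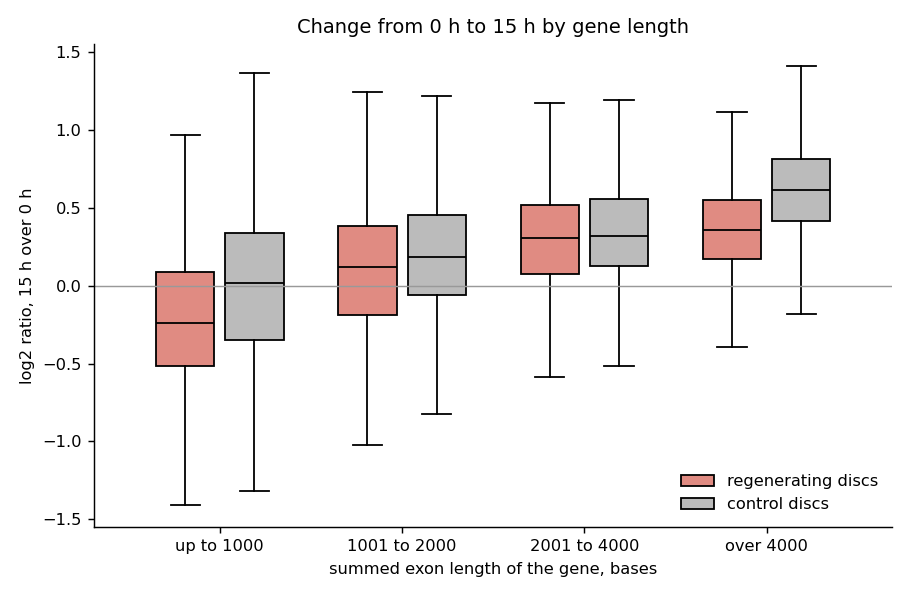
Log2 ratio of 15 h over 0 h by summed exon length for regenerating (red boxes) and control discs (grey boxes), each box spanning the middle 50% of the measured genes of a class with its median as a line and whiskers to 1.5 times that span. The medians of regenerating discs run from -0.24 in the shortest class to 0.36 in the longest.

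By position, chromosome 4, the small heterochromatic one, held the highest share of genes that rose, 9 of 67 or 13.4%, beside shares between 1.07% on chromosome arm 2R and 1.95% on 3R for the other nuclear arms. On this chromosome 3 genes fell, 4.48% beside 2.03% of all measured genes, and its median was -0.07 relative to all genes. In control discs 20 of 70 rose, 28.6% beside 4.72% of all genes measured there. The genes of chromosome 4 that rose in regenerating discs included ci and pan, the axon guidance receptor gene PlexA, at 53.1 FPKM at 15 h and 21.8 FPKM at 0 h, and the translation initiation factor gene eIF4G1, at 64.1 FPKM at 15 h and 29.5 FPKM at 0 h. All 9 have summed exons of over 4000 bases, the length class that rose most often, at 2.18%. The part of length in the share of chromosome 4 was not tested.

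Markers of other tissues were measured beside the disc genes. Of 9 measured fat body markers, genes of the larval storage tissue, 5 fell and 0 rose in regenerating discs, where 2.03% of all measured genes fell. All 7 measured in control discs fell, where 1.15% of all genes measured there fell. The FPKM of the fat body markers summed to 151 at 15 h and 408 at 0 h in regenerating discs, against 8.12 and 261 in control discs. At 25 h the sum was 722 in regenerating and 56.5 in control discs. The storage protein gene Lsp2 fell to 13.3 FPKM at 15 h, against 56.1 FPKM at 0 h, and the odorant-binding protein gene Obp99b to 47.5 FPKM at 15 h, against 191 FPKM at 0 h. Of 3 measured salivary gland and gut markers 2 fell, the glue genes Sgs5 and Sgs7, where 2.03% of all measured genes fell. At a pseudocount of 5 both lay within the rule. Sgs7 fell to 3.41 FPKM at 15 h, against 9.54 FPKM at 0 h, and Sgs3 was listed at 0 at 15 h, against 1.84 FPKM at 0 h. Unlike the fat body sum, the sum of this list in regenerating discs did not rise after 15 h, with 9.85 FPKM at 15 h and 9.535 FPKM at 25 h. In bulk RNA fewer cells of a tissue and less RNA per cell cannot be told apart. Hemocyte, muscle precursor, tracheal and nerve markers had 0 of 4, 0 of 9, 0 of 4 and 0 of 2 measured members past the rule, and the hemocyte sum was 27.2 FPKM at 15 h and 21.7 FPKM at 0 h, with He listed at 0 at 0 h and at 2.21 FPKM at 15 h.

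Immune effector and cuticle genes passed the rule in both directions, and the part of other tissues in these values was not tested. Of 8 measured immune genes 1 rose, PGRP-SA, and 2 fell, beside 1.68% and 2.03% of all measured genes. The stress peptide gene TotA fell to 2.53 FPKM at 15 h, against 11.5 FPKM at 0 h. The antimicrobial defensin gene Def fell to 3.10 FPKM at 15 h, against 9.37 FPKM at 0 h. In control discs TotA was listed at 0 at 15 h and at 4.25 FPKM at 0 h, and Def stood at 5.52 FPKM at 15 h and 14.1 FPKM at 0 h. Of 24 measured cuticle protein genes 1 rose and 3 fell, beside 1.68% and 2.03% of all measured genes. Cpr78E was the 1 that rose, while Cpr35B, at 1.91 FPKM at 15 h and 8.35 FPKM at 0 h, Cpr51A, at 31.3 FPKM at 15 h and 93.8 FPKM at 0 h, and Lcp4, at 3.27 FPKM at 15 h and 10.5 FPKM at 0 h, fell. The Tsp42E cluster of tetraspanin genes, singled out after its values were seen, had 3 of 9 measured members that fell, beside 2.03% of all measured genes. The most abundant of the 3 was Tsp42Ea at 153 FPKM at 15 h and 337 FPKM at 0 h, with 327 FPKM at 15 h and 225 FPKM at 0 h in control discs.

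Genes of the male accessory gland, which makes the seminal fluid of adult males, were listed above 0 in regenerating discs at 15 h. Of all 17158 genes 12 were listed at 1 FPKM or more there and at 0 in all 5 other columns. Of these 12, 7 were among the 38 genes of the testis and accessory gland list. They were led by Mst57Db at 29.7 FPKM and Mst57Da at 4.52 FPKM. The list had 0 such members in regenerating discs at 0 h. The sex peptide gene SP, at 5.55 FPKM, was another of the 12. Regenerating discs at 25 h had 1 such member, control discs at 15 h and 0 h had 0 each and control discs at 25 h had 2. The list also holds testis genes, and its members at 25 h included no Mst57D or Acp gene. The genes are short, with summed exons of 195 bases for Mst57Db, and read depth is unknown, so the number of fragments behind each value is not known.

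In all 417 genes were above 0 at 15 h and listed at 0 at 0 h, 134 of them at 1 FPKM or more, and 338 the other way round, 141 of them at 1 FPKM or more. The highest of the first kind was CG34305, at 49.96 FPKM at 15 h, which control discs held at 30.7 FPKM at 15 h and 8.36 FPKM at 0 h. The highest of the second kind was a ribosomal RNA gene, 28SrRNA:CR45837, at 653 FPKM at 0 h, and 255 FPKM in regenerating discs at 25 h, a transcript that poly(A) selection should leave out. CG33333, at 29.5 FPKM at 0 h, followed.

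Control discs of the same times show what changed without damage. There 376 of 7966 measured genes were higher at 15 h, 4.72%, and 92 were lower, 1.15%, while scaling gave 101 higher, 1.25%, and 258 lower, 3.19%. The control column at 0 h has fewer decimals than the others, and its values may be a rounded mean or those of 1 library. Among the 7687 genes measured in both kinds of disc, 37 were higher in both, which is 28.5% of the 130 higher in regenerating discs and 10.4% of the 357 higher in control discs, where 4.64% of all these genes were higher. Likewise 37 were lower in both, 27.2% of the 136 lower in regenerating discs and 52.1% of the 71 lower in control discs, where 0.924% of all these genes were lower. Across these genes the changes had a Pearson r of 0.42 and a Spearman rho of 0.34, as a description across genes that share gene length and library.

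The change in regenerating discs exceeded that in control discs by a log2 ratio of 1 or more for 69 of 7923 genes, 0.871%, and fell short of it by as much for 368, 4.64%. Median-of-ratios scaling, which moves this difference by 0.15, gave 132 genes, 1.67%, and 242 genes, 3.05%. None of these differences could be tested. Among the 8 highest differences were Hsp70Ab, Hsp70Bb, the fat body genes Fbp2 and Obp99b and the cuticle gene Lcp1, all of which fell in control discs. The highest belonged to CG42500, at 8.46 FPKM at 15 h and 4.51 FPKM at 0 h in regenerating discs, against 1.07 FPKM at 15 h and 96.1 FPKM at 0 h in control discs. At the other end stood rpr, with a difference of -3.34, then PCNA2 at -2.87, the cytochrome P450 gene Cyp4p2 at -2.64, CG33502 at -2.62 and ac at -2.57. Cyp4p2 fell to 1.98 FPKM at 15 h, against 13.4 FPKM at 0 h, in regenerating discs, where control discs held 70.5 FPKM at 15 h and 54.3 FPKM at 0 h. Of the 130 genes higher in regenerating discs 0 were lower in control discs by the rule, where 0.924% of all 7687 genes were lower. Of the 136 genes lower in regenerating discs 2 were higher in control discs, rpr and ac, where 4.64% of all 7687 genes were higher.

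**Figure D5:**
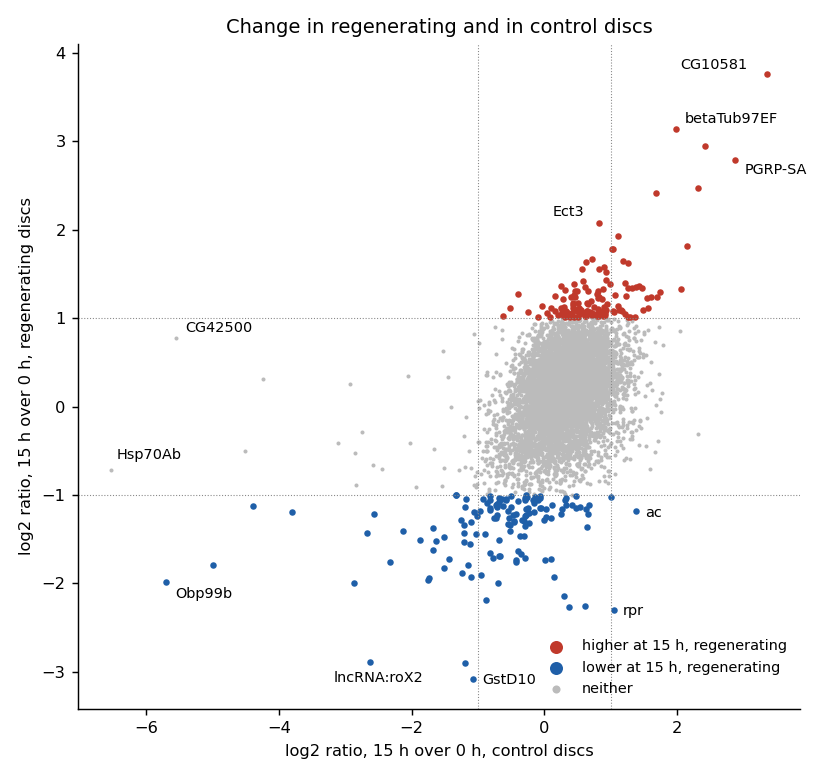
Log2 ratio of 15 h over 0 h in regenerating discs (vertical) against control discs (horizontal) for the 7687 genes measured in both, with dotted lines at ratios of 1 and -1, 1 point per gene. The highest ratios in regenerating discs, such as CG10581 and PGRP-SA, lie at the upper right. Of the 136 genes lower in regenerating discs 2, rpr and ac, were higher in control discs, where 4.64% of all 7687 genes were higher.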

How the data were processed

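Poly(A) RNA of wing discs, 40 discs to a library, was sequenced after Illumina TruSeq preparation, per the labels' protocols. The authors deposited 1 table of FPKM values with 1 column for each of 6 groups of 2 libraries, and 1 further column with no sample was not used. STAR 2.4.0j, RSEM and the dm6 build are named in the submitters' processing notes, without their roles. Strand use in counting and the way replicates were merged are not given in the sources used here. In 5 columns, values of at least 1000 that are whole and end in 5 had lost their decimal point and were divided by 1000. Of the gene identifiers 16912 were matched to symbols, positions and exon lengths of Ensembl release 115 (BDGP6.54, the dm6 sequence) and 246 were not.

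The log2 ratio of (FPKM + 1) was computed with pandas 2.3.3 for genes above 0 in both columns and at least 1 FPKM in 1 or both, and a size of 1 or more was called. With 1 merged column a group there was no test, SD or p. Read depth is unknown. Median-of-ratios factors were medians over genes above 0 in all 6 columns. The calculation was tested on simulated data.

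Named genes were the 12 highest and 12 lowest ratios at 5 FPKM or more, the 8 highest and 8 lowest differences from control discs, up to 4 members with the largest change per list, 16 fixed genes, of which 15 were matched, and the 5 highest genes listed at 0 in the other column. Other genes were named after their values were seen. The members and all gene lists were chosen with earlier results of these data known. Alternatives are given in the closing section. Promoter sequences were not analysed here.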

Additional observations from a re-analysis of the deposited data

Results flagged for a closer look

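The change of rpr, the proapoptotic gene, and that of ac, the proneural gene, had opposite directions in regenerating and control discs. For rpr the log2 ratio of 15 h over 0 h was -2.30 in regenerating and 1.04 in control discs, a difference of -3.34. For ac it was -1.19 in regenerating and 1.39 in control discs, a difference of -2.57. Each group has 1 merged value, so neither difference was tested.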

How the results depend on the processing

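The counts of genes higher, genes lower, and genes whose change exceeded or fell short of that in control discs were 133, 161, 69 and 368. A pseudocount of 0.1 gave 232, 258, 128 and 598, and one of 5 gave 50, 55, 24 and 195. Median-of-ratios scaling gave 52, 251, 132 and 242, and scaling each column to 1000000 gave 228, 103, 59 and 297. A rule of 1.5 times gave 1177, 503, 482 and 1335, and one of 4 times 7, 16, 14 and 15. Keeping genes listed at 0 in 1 column gave 267, 302, 155 and 457. Leaving out genes with a restored value gave 39, 43, 8 and 46, where fewer genes were tested. No filter on low values, a filter of 5 FPKM and nuclear protein-coding genes alone kept all 4 counts within 1.5 times. Otherwise the cause of these shifts was not tested. No named gene past the rule turned its direction in the alternatives run, though some dropped within it. At a pseudocount of 5 these were 18, Ilp8, Myc, pan, pit, CG40006, Pu, Trl, Hsp68, GstE5, GstE6, Cpr35B, Lcp4, Ddc, mRpL53, Def, Lsp1alpha, Sgs5 and Sgs7. After median-of-ratios scaling they were 6, pit, Syp, Pu, Gapdh1, l(2)gl and Trl, and with columns scaled to 1000000 2, CG34166 and mRpL53. Medians of gene lists, relative to all genes, were held to a fixed limit on the size of the shift. With genes of restored values left out, 5 list medians moved past it and 20 did not. Over all alternatives with list medians, 14 such values moved past it and 391 did not. No paired analysis was possible because the table holds 1 merged column a group, and for the same reason leaving out a replicate and the replicate block were not run. The limits are unknown depth, merged libraries and, for control discs, a 0 h column with at most 2 decimals.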

Other observations

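Chromatin genes mostly kept within the rule. Of 13 measured Trithorax and Brahma genes 1 rose, where 1.68% of all measured genes rose. This was Trl, the GAGA factor, at 93.9 FPKM at 15 h and 46.1 FPKM at 0 h, though not after median-of-ratios scaling. Of 15 Polycomb group genes 0 passed, with esc, a subunit of the histone H3 methyltransferase complex, nearest to the rule at 17.2 FPKM at 15 h and 8.55 FPKM at 0 h. None of the 9 measured genes of the cohesin list passed in regenerating discs, and 1 of the 9, Nipped-A, encodes a cofactor of histone acetyltransferase complexes and is neither a cohesin subunit nor its loader. The cohesin loader gene Nipped-B stood at 38.2 FPKM at 15 h and 39.9 FPKM at 0 h in regenerating discs, against 66.2 FPKM at 15 h and 18.9 FPKM at 0 h in control discs.

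Adhesion and matrix genes had lower medians in regenerating than in control discs, a difference that was not tested. For 9 measured integrin and adhesion genes the medians were 0.06 in regenerating and 0.49 in control discs, and for 10 basement membrane genes -0.14 and 0.26. Both lists hold long genes, with median lengths of 4482 and 5935.5 bases. All genes over 4000 bases likewise had a lower median in regenerating discs, 0.14 against 0.31 in control discs, relative to all genes. The part of length was not tested. None of either list passed the rule in regenerating discs. The integrin gene if stood at 6.57 FPKM at 15 h and 6.38 FPKM at 0 h in regenerating discs, against 7.58 FPKM at 15 h and 3.44 FPKM at 0 h in control discs, and the laminin gene LanA at 14.3 FPKM at 15 h and 15.3 FPKM at 0 h, against 18.2 FPKM at 15 h and 11.4 FPKM at 0 h. Of 12 chitin and cuticle enzyme genes 1 rose and 1 fell, beside 1.68% and 2.03% of all measured genes. Pu, which encodes the first enzyme of pteridine synthesis, rose, at 8.27 FPKM at 15 h and 3.11 FPKM at 0 h, though not after scaling. The gene that fell was Ddc. None of 12 genes of p53 and DNA damage signalling, 9 of insulin and TOR signalling and 13 of septate junctions passed.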
